A study of Homo sapiens with 4 samples.

Results

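Genes of the heart's contractile apparatus and its hormone were followed, namely the myosin light chains MYL3, MYL4 and MYL7, the troponins TNNT2, TNNI1 and TNNC1, the actin ACTC1, the myosin heavy chains MYH6 and MYH7, and the natriuretic peptide NPPA. The 10 members were chosen by symbol, each had a single row, and the table held 58229 genes in all. The cells were CD31+ derivatives of the established embryonic stem cell line H1 and were collected at day 8 of hematopoietic differentiation. CD31 (PECAM1) marks endothelial cells and many early blood cells. Control cells carried no HAND1 overexpression (2 libraries), and HAND1_OE cells overexpressed the transcription factor HAND1 (2 libraries). Both groups came from the same line, went through the same stepwise culture with activin A and BMP4 and then VEGF and bFGF, and were sequenced from total RNA. In the study's scheme HAND1 was switched on with doxycycline before blood cells emerge. The sources used here do not say whether the overexpressing line was a single clone or whether the libraries of a group came from separate cultures, so the p-values measure only the spread between these libraries, which may be technical.

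The sarcomere shortens when myosin heavy chains, each carrying an essential and a regulatory light chain, pull on filaments of sarcomeric actin. The troponin complex sits on those filaments: troponin C binds calcium, troponin I blocks the myosin sites and troponin T ties the complex to tropomyosin. In the embryo these genes mark the first cardiac muscle, which arises from mesoderm close to that of endothelium and blood, and NPPA encodes a hormone of the atrium and of the early chamber wall. MYL4, the atrial and embryonic essential light chain, is also used by early erythroid cells. The comparison of HAND1_OE with Control asks how the RNA of these genes differed when HAND1, a basic helix-loop-helix factor of heart and extraembryonic mesoderm, was kept high.

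HAND1 itself was at 12.1 and 14.3 FPKM in the Control libraries, against 520.5 and 517 FPKM in the HAND1_OE libraries (log2 fold change 5.20, SE 0.152, limma adjusted p = 0.00145). FPKM is the number of fragments of a gene scaled to its transcript length and to the depth of the library. The step that 1 fragment adds to a low gene put the libraries at about 21440000 to 26010000 fragments, and 13989 to 14542 genes reached 1 FPKM in each. PECAM1, the gene of the sorted surface protein, was at 92.0 to 160 FPKM. Libraries of the same group correlated at 0.974 (Control) and 0.971 (HAND1_OE) across genes, and libraries of different groups at 0.938 to 0.952. Of the 14622 genes that reached 1 FPKM in at least 2 libraries, 299 were called higher and 309 lower in HAND1_OE (limma, adjusted p under 0.05), which is 4.16% of those tested. With single Control libraries left out these counts were 141 higher and 144 lower without Control replicate 1 and 134 and 137 without Control replicate 2. The median log2 fold change over all genes tested was -0.078, and 38.7% of genes lay above 0.

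A single member was called. MYL4 fell 16.9-fold, and it was the only member past the threshold, 1 lower and 0 higher among the 7 members tested, where 2.11% of all genes were called lower and 2.04% higher. TNNT2, ACTC1 and MYL3 had an unadjusted p under 0.05 in the upward direction without passing the adjustment, and MYH7 was higher in both HAND1_OE libraries but too low to be tested. In 5 of the 10 members (MYL3, TNNT2, ACTC1, MYH6 and MYH7) the HAND1_OE libraries were both above the Control libraries, and in 1 (MYL4) both were below. Among the 29860 genes above 0 in any library, 13.6% lay higher in this way and 38.3% lay apart in either direction. Of the 7 members tested, 3 lay higher and 1 lower, beside 16.2% and 30.1% of all genes tested, or 46.3% in either direction. The median log2 fold change of the 7 was 0.21, with 4 above 0 and 3 below. MYL3 reached the 1 FPKM minimum only in the HAND1_OE libraries, and MYH6, MYH7 and NPPA did not reach it in 2 libraries.

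**Figure D1:**
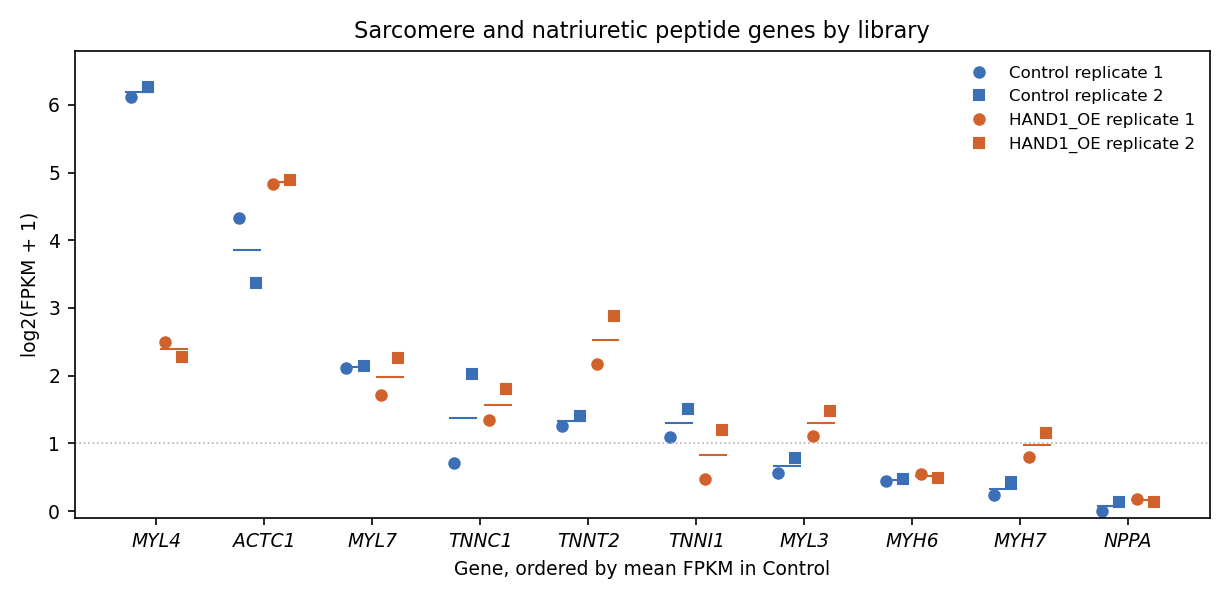
Level of each of the 10 genes in each library, as log2(FPKM + 1), ordered by the Control mean. Circles and squares are replicates 1 and 2, short bars are group means, and the dotted line marks 1 FPKM. MYL4 drops from 68.1 and 75.9 FPKM in Control to 4.68 and 3.85 FPKM in HAND1_OE, while ACTC1 and TNNT2 lie higher in both HAND1_OE libraries.

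The order of the levels differed between the groups. In Control, MYL4 stood first and ACTC1 next, followed by MYL7, and the ranges of these 3 genes did not overlap. TNNC1 lay just below MYL7, and TNNC1, TNNT2 and TNNI1 came after it with ranges that overlapped one another. MYL3, MYH6, MYH7 and NPPA followed without overlap among them, but MYL3 (0.479 and 0.715 FPKM) overlapped TNNC1 (0.636 and 3.07 FPKM). In HAND1_OE, ACTC1 stood first and apart from the rest. TNNT2 and MYL4 came next and overlapped, MYL4 lay just above MYL7, and from MYL7 down through TNNC1, MYL3, MYH7, TNNI1 and MYH6 each neighbour overlapped the next. NPPA was last in both groups. MYL4 held 71.9% and 78.4% of the summed FPKM of the 10 genes in the Control libraries and 11.1% and 7.72% in the HAND1_OE libraries. ACTC1 held 20.2% and 9.63% in Control and 64.8% and 57.3% in HAND1_OE. Without MYL4 the other 9 genes summed to 26.7 and 20.8 FPKM in Control and to 37.6 and 46.0 FPKM in HAND1_OE, so the groups lay apart in the opposite direction from MYL4. Without ACTC1 as well they summed to 7.51 and 11.5 FPKM in Control and to 10.2 and 17.5 FPKM in HAND1_OE, and the groups overlapped.

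Sequence before the RefSeq start is shown for 3 members that contrast in the data: TNNT2 and ACTC1, which had the largest upward differences of the members tested, and MYL7, whose groups overlapped. Promoter sequence from RefSeq (GRCh38.p14) was at hand for 6 of the 10 members, not for MYL4, TNNI1, TNNC1 and MYH7. The 250 bases before each start were searched on both strands for the E-box CANNTG, the kind of motif that basic helix-loop-helix factors bind, for AGATAA and AGATAG, which GATA factors bind, for TATAAA and for the CArG box, the motif of serum response factor. Each is printed 5′ to 3′ on the minus strand, which is the gene's strand, and capitals mark the matches.
TNNT2, chr1:201377763-201377930: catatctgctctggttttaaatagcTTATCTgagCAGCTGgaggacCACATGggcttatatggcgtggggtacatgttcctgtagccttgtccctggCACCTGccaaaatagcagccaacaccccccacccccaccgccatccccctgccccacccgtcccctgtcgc
MYL7, chr7:44141333-44141582: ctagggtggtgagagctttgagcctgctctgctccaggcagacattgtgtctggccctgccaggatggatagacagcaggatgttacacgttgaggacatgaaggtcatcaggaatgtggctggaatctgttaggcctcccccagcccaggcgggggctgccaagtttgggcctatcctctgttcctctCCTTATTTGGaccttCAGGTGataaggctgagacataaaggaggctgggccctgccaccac
ACTC1, chr15:34795639-34795668: gcgaaggggaCCAAATAAGGcaaggtggca
The TNNT2 stretch holds AGATAA on the opposite strand (read here as TTATCT) 225 bases before the start and E-boxes 216, 204 and 153 bases before it, and a further E-box lies at 41. MYL7 holds a CArG box at 61 and an E-box at 46, and the ACTC1 stretch is centred on a CArG box at 109. Other annotation starts ACTC1 further upstream: the printed stretch lies within the interval of the gene in the deposited table and in an exon of GENCODE release 29. The 82 bases nearest the TNNT2 start, which hold its E-box at 41, also lie in an exon of that release and are not printed. The whole NPPA window lies within the annotated interval of NPPA.

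These matches are descriptions of the letters and not of binding. Of 35116 RefSeq windows of the same length, 61.8% held an E-box, with a median of 1 match, and 4 of the 6 members did (TNNT2 and NPPA with 4 each, MYL7 and ACTC1 with 1 each). The CArG box was in 1.2% of the windows and in 2 of the 6 members, MYL7 and ACTC1, of which ACTC1 lay higher in HAND1_OE and MYL7 did not. AGATAA was in 9.2% of the windows and in TNNT2 alone of the 6. AGATAG was in 5.7% of the windows and in 0 of the 6. Other sequences that GATA factors bind, such as TGATAA, were not searched for. TGATAA can be read in the MYL7 and NPPA windows, so TNNT2 is alone for AGATAA only. TATAAA was in 10.7% of the windows and in ACTC1, MYH6 and NPPA. The MYL3 window held none of these motifs.

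Among the light chains, MYL4 (ENSG00000198336.9, GRCh38 chromosome 17, 47200446 to 47223679) was at 68.1 and 75.9 FPKM in the Control libraries, against 4.68 and 3.85 FPKM in the HAND1_OE libraries. Both Control values were far above both HAND1_OE values, and the spread within each group was small beside the gap. The means were 71.96 ± 5.51 FPKM for Control and 4.26 ± 0.584 FPKM for HAND1_OE (SD, n = 2), which is a log2 fold change of -3.80 on the log2(FPKM + 1) scale (SE 0.163, 95% interval -4.20 to -3.39, limma adjusted p = 0.00335). It was the 12th lowest fold change of the 14622 genes, and 0.13% of genes had a larger change in either direction. At the longest annotated coding transcript (907 nt) these levels stand for about 941 and 1046 fragments in Control and 77.5 and 55.0 in HAND1_OE, so the level in HAND1_OE was low but well sampled. With all genes above 0 tested the fold change was the same and the limma adjusted p was 0.153.

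MYL3 and MYL7 were not called. MYL3 (ENSG00000160808.9, chromosome 3, 46857872 to 46882169), the essential light chain of ventricle and slow muscle, was at 0.479 and 0.715 FPKM in Control, against 1.16 and 1.79 FPKM in HAND1_OE. Both HAND1_OE libraries were the higher, with a log2 fold change of 0.63 (SE 0.241, 95% interval 0.028 to 1.23) that did not pass (limma adjusted p = 0.265). MYL3 lies over PTH1R on the opposite strand, which was at 3.09 to 7.45 FPKM without separating the groups, and the strand setting of the counting is not given in the sources used here. MYL7 (ENSG00000106631.8, chromosome 7, 44138864 to 44141332), the atrial regulatory light chain, was at 3.32 and 3.43 FPKM in Control, against 2.28 and 3.78 FPKM in HAND1_OE. Its groups overlapped, the log2 fold change was -0.14 (95% interval -0.74 to 0.45, limma adjusted p = 0.838), and without HAND1_OE replicate 1 its sign turned to 0.13. The levels of the 2 atrial light chains lay closer in HAND1_OE: MYL4 was 20.5 and 22.1 times MYL7 in the Control libraries and 2.05 and 1.02 times in the HAND1_OE libraries. MYL4 was 142 and 106 times MYL3 in Control and 4.02 and 2.15 times in HAND1_OE.

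The other light chains of the table gave the following picture. The ventricular regulatory chain MYL2 and the fast skeletal chain MYL1 were listed at 0 in all 4 libraries. The ubiquitous non-muscle chain MYL6 was at 1329 and 1081 FPKM in Control, against 1386 and 1231 FPKM in HAND1_OE, and its relative MYL6B was at 125 and 74.8 FPKM in Control, against 110 and 81.2 FPKM in HAND1_OE. Neither passed (log2 fold change 0.12, limma adjusted p = 0.834, and -0.03, limma adjusted p = 0.976), and both signs turned without single libraries, to -0.025 for MYL6 without Control replicate 2 and to 0.33 for MYL6B without Control replicate 1. Of the light chain genes named here, MYL4 alone had a called change.

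The genes whose profile over the 4 libraries was nearest to that of MYL4 were all genes of red cells or of their regulators. By distance in centred log2(FPKM + 1) over all genes tested, the nearest 5 were GYPE (0.246), NFE2 (0.279), KLF1 (0.302), GATA1 (0.343) and HBZ (0.396). GYPE, of the glycophorin family, went from 21.3 and 27.97 FPKM to 0.855 and 0.895 FPKM. KLF1, the erythroid Krüppel-like factor, went from 20.5 and 27.9 FPKM to 1.11 and 0.436 FPKM. GATA1, the master regulator of red cells and megakaryocytes, went from 25.6 and 29.6 FPKM to 1.51 and 0.543 FPKM. The 5 were picked for nearness to MYL4, so their fall follows from that choice, with log2 fold changes from -3.76 to -3.90. The embryonic globin HBZ was at 35.7 and 57.9 FPKM in Control, against 2.25 and 1.98 FPKM in HAND1_OE. NFE2, a factor of the erythroid and megakaryocyte lineages, was at 33.3 and 40.2 FPKM in Control, against 2.42 and 1.26 FPKM in HAND1_OE.

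Most erythroid markers were lower in HAND1_OE, as MYL4 was, while EPOR, ANK1 and TRIM58 were tested without a call. Of 20 erythroid markers, 16 were tested, 13 fell and 0 rose in limma (0 also at an unadjusted p under 0.05), the median log2 fold change of the 16 was -3.83, and 19 of the 20 were lower in both HAND1_OE libraries than in both Control libraries. Beside these, 38.3% of all genes above 0 in any library lay apart in either direction, and 13.6% lay higher. The largest falls among the markers were those of GYPB (-4.93), HBE1 (-4.19) and ALAS2 (-4.18). The glycophorin and globin genes have near-identical copies, so the value of any one of them is uncertain. Summed over the list, the markers reached 944 and 1365 FPKM in Control and 75.7 and 62.8 FPKM in HAND1_OE. AHSP and SLC4A1, which mark later red cells, stayed under 1 FPKM in all 4 libraries, as did HEMGN. The ratio of MYL4 to the fetal globin HBG2 was 0.152 and 0.131 in Control and 0.148 and 0.159 in HAND1_OE, so it held within a narrow band while both genes fell. The ratio of MYL4 to GATA1 was 2.66 and 2.56 in Control and 3.10 and 7.10 in HAND1_OE. Blood cell markers fell as well, 10 of the 10 tested of 12 (median -2.97), led by ITGA2B (-3.62), RUNX1 (-3.22) and SPN (-3.13), and their sum went from 226 and 264 FPKM to 28.4 and 19.0 FPKM. Several erythroid and blood cell markers did not reach 1 FPKM in both HAND1_OE libraries and were tested through their Control values. With 1 FPKM required in every library, 7 erythroid and 4 blood cell markers were called lower. In bulk libraries fewer cells of a type and less RNA per cell cannot be told apart, and the part of red cell RNA in the fall of MYL4 was not tested.

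**Figure D2:**
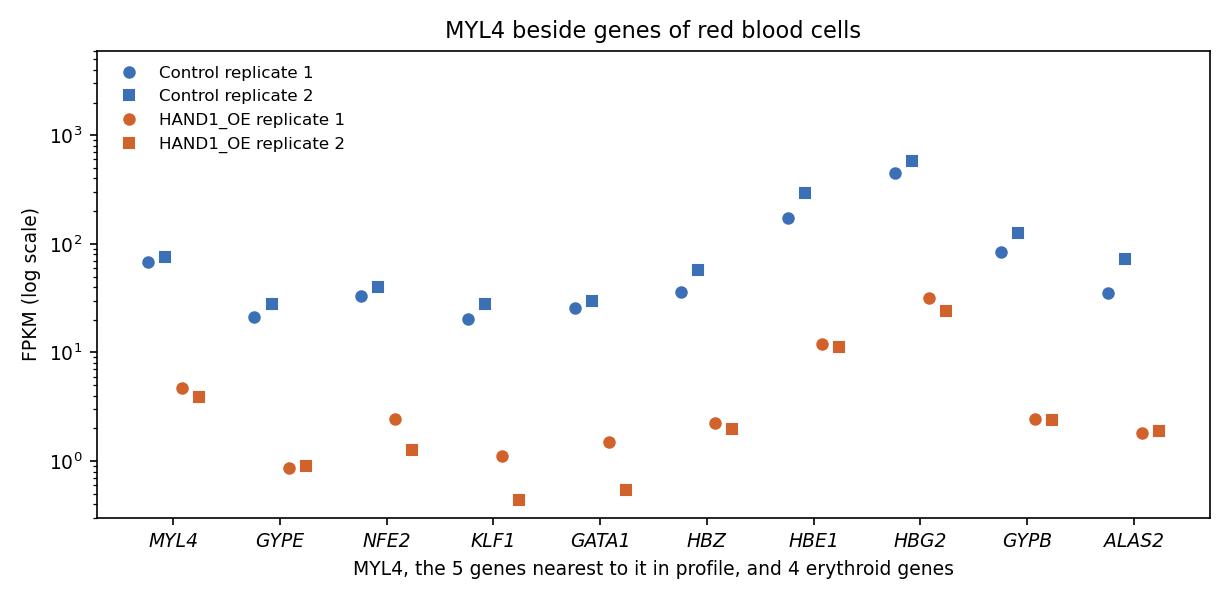
FPKM on a log axis of MYL4, of the 5 genes nearest to it in profile and of 4 further erythroid genes, by library. Circles and squares are replicates 1 and 2. In all 10 genes both HAND1_OE libraries lie more than an order of magnitude below both Control libraries, as MYL4 does at 4.68 and 3.85 against 68.1 and 75.9 FPKM.

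Of the troponins, TNNT2 stood highest in HAND1_OE. TNNT2 (ENSG00000118194.18, chromosome 1, 201359008 to 201377762), cardiac troponin T and the usual marker of cardiomyocytes in culture, was at 1.39 and 1.64 FPKM in Control, against 3.50 and 6.37 FPKM in HAND1_OE. Both HAND1_OE libraries were above both Control libraries, and they differed from each other more than the Control libraries did. The means were 1.52 ± 0.175 and 4.93 ± 2.03 FPKM (SD, n = 2), which gives a log2 fold change of 1.20 (SE 0.280, 95% interval 0.50 to 1.89) that did not pass over all genes (limma adjusted p = 0.0914). A single library decides the call: without HAND1_OE replicate 1 the log2 fold change was 1.55 with a limma adjusted p = 0.0286, and without HAND1_OE replicate 2 it was 0.84 with 0.205. The neighbouring gene LAD1 overlaps TNNT2 on the same strand and was also higher in HAND1_OE, from 0.232 and 0.224 FPKM to 0.552 and 0.889 FPKM. How reads over both genes were divided is not given in the sources used here, so the value of TNNT2 is uncertain to that extent.

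TNNI1 lies 26005 bp from TNNT2, and neither it nor TNNC1 separated the groups. TNNI1 (ENSG00000159173.18, chromosome 1, 201403768 to 201429866), the slow skeletal troponin I that the embryonic heart uses before the cardiac form, was at 1.14 and 1.84 FPKM in Control, against 0.386 and 1.29 FPKM in HAND1_OE. The groups overlapped (log2 fold change -0.47, 95% interval -1.27 to 0.33, limma adjusted p = 0.551). The ratio of TNNT2 to TNNI1 was 1.23 and 0.891 in Control and 9.08 and 4.95 in HAND1_OE. TNNC1 (ENSG00000114854.7, chromosome 3, 52451102 to 52454070), the calcium-binding subunit of cardiac and slow muscle, was at 0.636 and 3.07 FPKM in Control, against 1.54 and 2.49 FPKM in HAND1_OE. The Control libraries lay outside the HAND1_OE libraries on both sides, and a log2 fold change from -0.93 to 1.34 was within the 95% interval (estimate 0.21, limma adjusted p = 0.887). These levels stand for about 6.3, 30.5, 18.3 and 25.3 fragments in the same order, and the sign turned to -0.45 without Control replicate 1 and to -0.024 without HAND1_OE replicate 2.

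Of the troponin genes outside the members, TNNI3 and TNNT1 were tested. TNNI3, the mature cardiac troponin I, was at 1.83 and 1.56 FPKM in Control, against 0.196 and 0.125 FPKM in HAND1_OE, and fell (log2 fold change -1.22, SE 0.215, limma adjusted p = 0.0441). It reached 1 FPKM in the Control libraries only, and it did not pass when any of the 4 libraries was left out (limma adjusted p 0.0838 to 0.148). TNNT1, the slow skeletal troponin T, was at 6.74 and 7.78 FPKM in Control, against 2.08 and 4.81 FPKM in HAND1_OE, lower in both without passing (log2 fold change -0.96, limma adjusted p = 0.211). Without HAND1_OE replicate 2 it passed (log2 fold change -1.42, limma adjusted p = 0.0275). Cardiac troponin T was thus higher in both HAND1_OE libraries, while cardiac troponin I and slow troponin T were lower in both.

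ACTC1 (ENSG00000159251.6, chromosome 15, 34788096 to 34796139), the cardiac alpha actin and an early gene of the forming heart, was at 19.2 and 9.32 FPKM in Control, against 27.4 and 28.6 FPKM in HAND1_OE. The HAND1_OE libraries were close to each other and above both Control libraries, which lay far apart. The means were 14.2 ± 6.96 and 27.98 ± 0.810 FPKM (SD, n = 2), which gives a log2 fold change of 1.01 (SE 0.321, 95% interval 0.21 to 1.81) that did not pass (limma adjusted p = 0.189). The estimated fragments, 1447 and 685 in Control and 2441 and 2225 in HAND1_OE, show that none of the 4 values rests on few fragments. The estimate rests on those libraries: it was 1.49 without Control replicate 1, with a limma adjusted p = 0.0375, and 0.52 without Control replicate 2, with 0.445.

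The other actins were examined beside it. ACTA2, the smooth muscle alpha actin, was at 74.1 and 72.2 FPKM in Control, against 84.3 and 76.2 FPKM in HAND1_OE (log2 fold change 0.13, limma adjusted p = 0.739), and the skeletal alpha actin ACTA1 stayed between 0.189 and 0.384 FPKM. The ratio of ACTC1 to ACTA2 was 0.259 and 0.129 in Control and 0.325 and 0.375 in HAND1_OE. No stretch of 75 bases of the ACTC1 transcript occurred in the annotated transcripts of another gene. With the 3 alpha actins summed, the log2 fold change was 0.31 (95% interval -0.067 to 0.68, limma adjusted p = 0.386). Of 20 cytoplasmic and smooth muscle actin, myosin and tropomyosin genes, 18 were tested and 0 changed in either direction in limma, with 1 lower (TPM2) and 0 higher at an unadjusted p under 0.05 and a median of -0.010. Of the most abundant, ACTB went from 1549 and 1285 FPKM to 1582 and 1158 FPKM and ACTG1 from 1383 and 1384 FPKM to 1335 and 1331 FPKM. Their small log2 fold changes, -0.06 and -0.05, turned to 0.033 and 0.039 under median-ratio scaling.

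**Figure D3:**
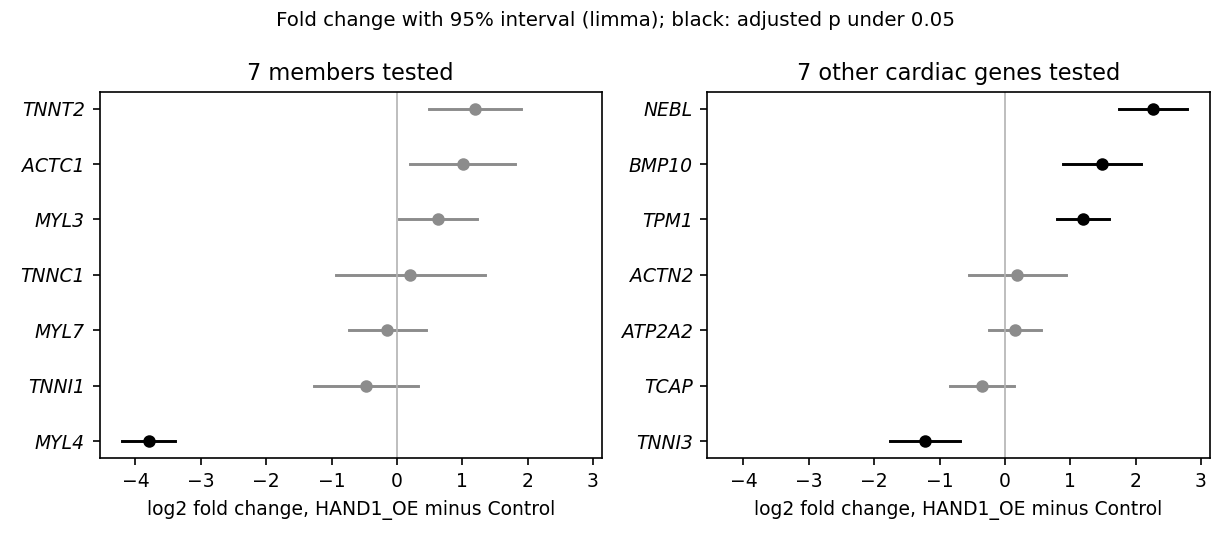
Log2 fold change, HAND1_OE minus Control, on the log2(FPKM + 1) scale with its 95% interval from limma, for the 7 members tested (left) and the 7 other cardiac sarcomere and chamber genes tested (right). Black marks genes past the threshold: MYL4 at -3.80 on the left, and NEBL at 2.27, BMP10 at 1.49, TPM1 at 1.20 and TNNI3 at -1.22 on the right.

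The cardiac myosin heavy chain genes lie 4460 bp apart on chromosome 14, and both were below the level at which genes were tested. MYH6 (ENSG00000197616.11, 23381990 to 23408277) encodes alpha myosin, the fast heavy chain of the atrium, and was at 0.363 and 0.389 FPKM in Control, against 0.466 and 0.405 FPKM in HAND1_OE. Its HAND1_OE libraries were the higher by a narrow margin, 1.16-fold in the means. MYH7 (ENSG00000092054.12, 23412738 to 23435718) encodes beta myosin, the slow heavy chain of ventricle and slow muscle, and was at 0.179 and 0.343 FPKM in Control, against 0.732 and 1.23 FPKM in HAND1_OE. The means of 0.261 ± 0.116 and 0.981 ± 0.353 FPKM (SD, n = 2) stand 3.76-fold apart, with both HAND1_OE libraries above both Control libraries. Since the transcript is long (6087 nt), these low levels still stand for about 22.9 and 42.8 fragments in Control and 111 and 163 in HAND1_OE.

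The listed order of the heavy chains differed between the groups, by a small margin in Control replicate 2. The ratio of MYH7 to MYH6 was 0.492 and 0.881 in the Control libraries and 1.57 and 3.04 in the HAND1_OE libraries. Alpha was thus listed above beta in both Control libraries and below it in both HAND1_OE libraries. In Control replicate 2 about 47.4 fragments of MYH6 stood beside 42.8 of MYH7, a gap too small to set their order. With the minimum lowered to 0.1 FPKM, an alternative chosen after the data were seen, MYH7 did not pass (log2 fold change 0.64, limma adjusted p = 0.216). The genes share 7.89% of the 75-base stretches of the MYH6 transcript and 7.70% of those of MYH7, so the division of reads between them is uncertain to a small degree. Their summed FPKM was 0.541 and 0.732 in Control and 1.20 and 1.64 in HAND1_OE (log2 fold change 0.56, 95% interval 0.0011 to 1.12, limma adjusted p = 0.286).

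**Figure D4:**
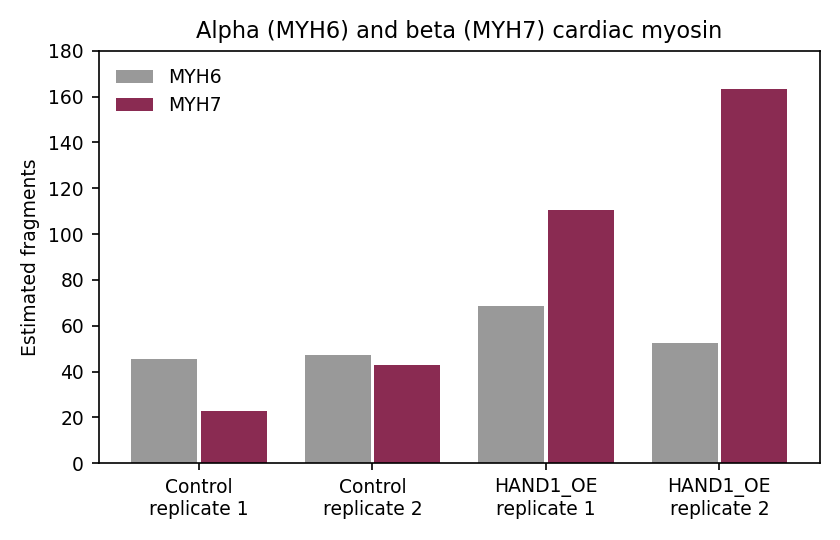
Estimated fragments of MYH6 (grey) and MYH7 (dark red) in each library, from FPKM and the longest annotated coding transcript. MYH6 lies between 45.4 and 68.8 in all libraries, while MYH7 goes from 22.9 and 42.8 in Control to 111 and 163 in HAND1_OE.

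NPPA (ENSG00000175206.10, chromosome 1, 11845709 to 11848345) was at the limit of what these libraries could show. It was listed at 0 and 0.103 FPKM in Control, against 0.133 and 0.10 FPKM in HAND1_OE, which is at most about 2.0 fragments in any library and below the 3 fragments that a count of 0 still allows. NPPA was thus very low in both groups, and a difference at such levels was not detectable at this depth. It lies over CLCN6 on the opposite strand, which was at 10.5 to 13.5 FPKM. The companion hormone NPPB was at 0.557 and 0.333 FPKM in Control, against 0.092 and 0.436 FPKM in HAND1_OE, and the groups overlapped.

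The remaining sarcomere and chamber genes of the heart changed one by one. Of 28 such genes, 20 stayed under 1 FPKM in all 4 libraries, MYL2, CSRP3 and SMPX were listed at 0 throughout, 7 were tested, 3 rose and 1 fell, with a median log2 fold change of 0.19 over the 7. Over all 28 the median difference was -0.0035, and 3 genes were higher and 9 lower in both HAND1_OE libraries than in both Control libraries. Among all genes above 0 in any library, 13.6% lay higher in this way and 38.3% apart in either direction. NEBL, which encodes nebulette, a thin filament protein of the cardiac Z-disc, rose from 0.523 and 0.713 FPKM to 6.01 and 7.64 FPKM (log2 fold change 2.27, SE 0.208, limma adjusted p = 0.00851). TPM1, the alpha tropomyosin to which troponin T binds and which many other cells also use, rose from 73.9 and 61.6 FPKM to 161 and 151 FPKM (log2 fold change 1.20, SE 0.159, limma adjusted p = 0.0220). BMP10, a growth factor of the trabeculating embryonic heart, rose from 0.452 and 0.461 FPKM to 2.49 and 3.78 FPKM (log2 fold change 1.49, SE 0.237, limma adjusted p = 0.0347). NEBL and BMP10 reached 1 FPKM in HAND1_OE alone, and with 1 FPKM required in every library TPM1 was the only called gene of the list. BMP10 did not pass without Control replicate 1 (limma adjusted p = 0.0880), Control replicate 2 (0.0930) or HAND1_OE replicate 2 (0.0732), and TPM1 did not pass without Control replicate 2 (0.0894). The calcium pump ATP2A2, which cells of many kinds use, was at 44.0 to 56.5 FPKM, and the Z-disc actinin ACTN2 at 0.817 to 2.01 FPKM, with no call for either.

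Skeletal sarcomere genes were mostly near 0. Of 18, 15 stayed under 1 FPKM in all libraries, 2 were tested and 0 changed in limma, with 1 lower (TNNT1) and 0 higher at an unadjusted p under 0.05 and a median of -0.015. The fast light chain MYLPF was at 0.648 and 3.52 FPKM in Control, against 3.52 and 4.99 FPKM in HAND1_OE (limma adjusted p = 0.418). MYOG, the regulator of muscle differentiation, was at 0.184 to 1.37 FPKM.

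Of 17 transcription factors that drive cardiac genes, 4 stayed under 1 FPKM in all libraries and 13 were tested. Of these, 2 fell and 0 rose in limma, with a median log2 fold change of 0.0053. At an unadjusted p under 0.05, 4 were higher in HAND1_OE and 3 were lower. Over all 17 the median difference was -0.19, and 5 were higher and 10 lower in both HAND1_OE libraries than in both Control libraries. The shares among all genes above 0 in any library were 13.6% higher and 38.3% apart in either direction. HAND2, the paralog of HAND1 in the heart, fell from 35.4 and 36.8 FPKM to 7.24 and 9.09 FPKM (log2 fold change -2.02, SE 0.167, limma adjusted p = 0.00730). HEY2, a Notch effector of the ventricle and of arteries, fell from 36.5 and 31.9 FPKM to 12.7 and 16.3 FPKM (log2 fold change -1.19, SE 0.181, limma adjusted p = 0.0311). HEY2 did not pass without Control replicate 1 (limma adjusted p = 0.115), Control replicate 2 (0.0822) or HAND1_OE replicate 1 (0.0567). Its relative HEY1 was at 168 and 91.0 FPKM in Control, against 262 and 201 FPKM in HAND1_OE, higher in both without passing (limma adjusted p = 0.236).

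GATA4, NKX2-5, MEF2C and TBX20 did not pass. GATA4 was at 52.3 and 42.9 FPKM in Control, against 75.01 and 72.7 FPKM in HAND1_OE (log2 fold change 0.63, limma adjusted p = 0.110). NKX2-5 was at 40.9 and 22.9 FPKM in Control, against 19.6 and 14.7 FPKM in HAND1_OE (log2 fold change -0.82, limma adjusted p = 0.250). The former lay higher and the latter lower in both HAND1_OE libraries. MEF2C (15.7 to 28.0 FPKM) and TBX20 (1.18 to 2.73 FPKM) overlapped between groups, and TBX5 was at 0.328 and 0.112 FPKM in Control, against 0.0994 and 0.0264 FPKM in HAND1_OE.

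**Figure D5:**
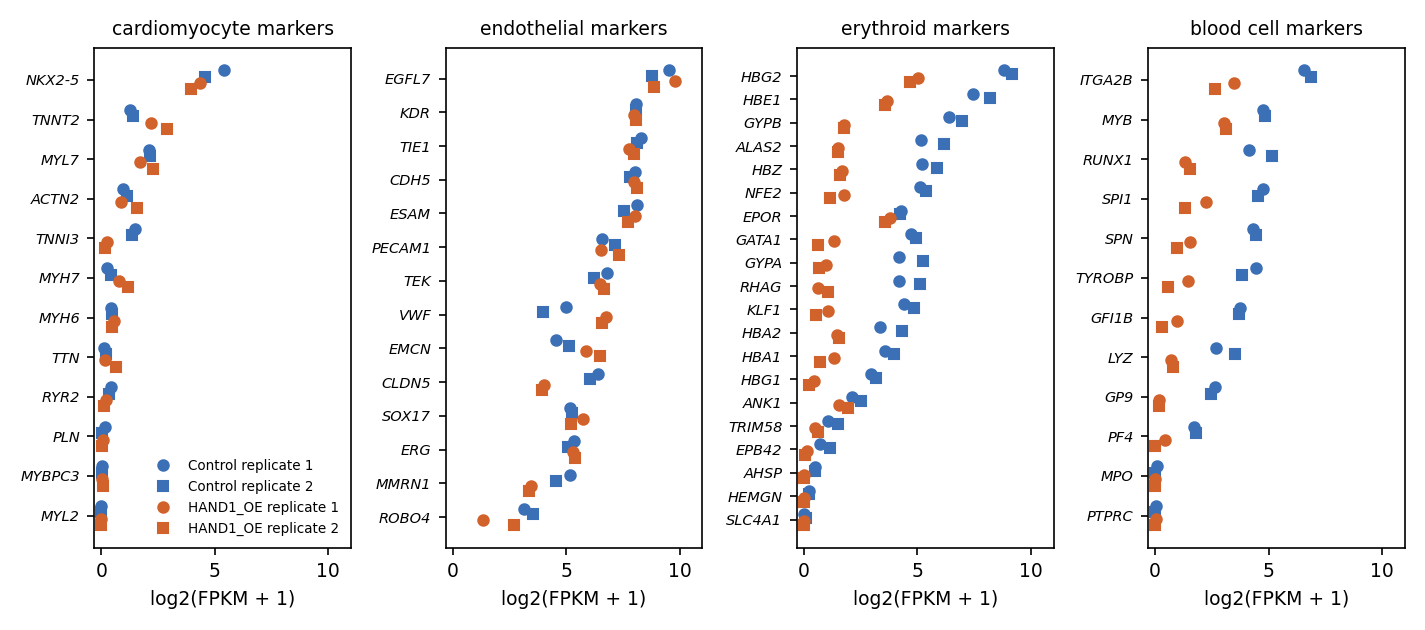
Level of each marker gene in each library as log2(FPKM + 1), for cardiomyocytes, endothelial cells, erythroid cells and other blood cells. Circles and squares are replicates 1 and 2. Erythroid and blood cell markers lie lower in HAND1_OE, endothelial markers are high in both groups, and 6 of the 12 cardiomyocyte markers stay under 1 FPKM in all 4 libraries.

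Markers of the cells that could hold these transcripts were set beside them. Of 12 cardiomyocyte markers, 4 of which are members, 6 stayed under 1 FPKM in all libraries and MYL2 was listed at 0. Of the 5 tested, 0 rose and 1 fell (TNNI3) in limma. At an unadjusted p under 0.05, 1 was higher (TNNT2) and 2 were lower (TNNI3 and NKX2-5). Of the 12, 3 lay higher and 3 lower in both HAND1_OE libraries than in both Control libraries. Among all genes above 0 in any library, 13.6% lay higher in this way and 38.3% apart in either direction. TTN was at 0.0859 to 0.583 FPKM, MYBPC3 at 0.0154 to 0.0527 FPKM, PLN at 0.0255 to 0.132 FPKM and RYR2 at 0.0748 to 0.358 FPKM. Other markers of the list were higher, with TNNT2 and MYL7 at the levels given above, ACTN2 at up to 2.01 FPKM and NKX2-5 at 14.7 to 40.9 FPKM. The list summed to 49.5 and 31.9 FPKM in Control and to 27.9 and 29.3 FPKM in HAND1_OE, with NKX2-5 the largest part in each library. Of 14 endothelial markers, all were tested, VWF rose (2.18) and CLDN5 (-2.27) and MMRN1 (-1.46) fell, MMRN1 not without Control replicate 1 (limma adjusted p = 0.0842). The endothelial sum was 2335 and 1835 FPKM in Control and 2333 and 2033 FPKM in HAND1_OE, and its ranges overlapped. EGFL7, KDR and TIE1, the most abundant by the mean of all 4 libraries, were at 219 to 882 FPKM. The part of a change in cell makeup in the levels of TNNT2, ACTC1, MYH7 and MYL3 was not tested.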

How the data were processed

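RNA of 2 Control and 2 HAND1_OE libraries, grouped by their titles, had been made into TruSeq libraries and sequenced by a company. The authors deposited a single table of values per gene and library whose unit it does not state. The deposited values were taken as FPKM, which is the unit of the study's plots, and they are not whole numbers. The submitters' processing notes name BWA, Bowtie, RSEM and hg19 without roles or versions, yet the start and end of 56550 of the 58229 genes equal those of GENCODE release 29 on GRCh38, so coordinates are given on that build, counted from 1. Of the 58365 rows, 45 held Y copies of pseudoautosomal genes and 91 repeated a gene ID, and these were left out.

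Genes that reached 1 FPKM in at least 2 libraries were compared on the log2(FPKM + 1) scale with limma 3.58.1 under R 4.3.3, its mean-variance trend switched on. The test is two-sided, with Benjamini-Hochberg adjustment across the 14622 genes tested. An exact permutation test of 2 against 2 cannot go below 0.333. Intervals are 95% intervals from the fit. Fold changes on this scale understate the change of low genes. The code was first tested on simulated data.

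Estimated fragments are FPKM divided by the worth of 1 fragment. That worth was read from low values of genes with a single transcript of at least 1500 nt, of which 91.3% to 92.2% were then whole to within 0.05 at up to 10 fragments. They cover counting error only and carry the uncertainty of the transcript length used.

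The members, the 8 other gene lists (other cardiac sarcomere and chamber genes, cardiac transcription factors, skeletal sarcomere genes, cytoplasmic and smooth muscle genes, and markers of erythroid, endothelial, cardiomyocyte and blood cells) and the tests were chosen with earlier results of these data known. Named genes are the members, HAND1, close paralogs, core cardiac factors, the 5 profiles nearest to a called member, and from each list up to 3 called genes with the largest changes and its 3 most abundant genes. Other genes named were chosen after their values were seen. Alternatives were another pseudocount, other filters on low values, quantile normalization, median-ratio scaling, no mean-variance trend, a replicate block, the omission of each library, protein-coding genes alone, a fold change of at least 2 and summed paralogs.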

Additional observations from a re-analysis of the deposited data

How the results depend on the processing

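MYL4 kept its direction under every alternative run, with log2 fold changes from -4.05 to -3.68, and lost its call only when all 29860 genes listed above 0 anywhere were tested (limma adjusted p = 0.153). With that filter HAND1 was at 5.20 with a limma adjusted p = 0.153, and 0 genes were called higher and 0 lower over all genes (1458 and 2352 at an unadjusted p under 0.05), so that 0 members and 0 genes of any list were called. In that fit the unadjusted p of HAND1 was 8.9e-06 and that of MYL4 3.9e-05, and the cause was not tested. With a minimum of 0.1 FPKM in at least 2 libraries, added after the data were seen, 132 genes were higher and 134 lower, and with a pseudocount of 0.1 as well 103 and 116.

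Under the first of these added settings 1 cardiac transcription factor and 1 endothelial marker were lower and 0 endothelial markers higher. Under the second 1 other cardiac gene was higher and 0 lower, 1 cardiac transcription factor lower, 0 endothelial markers higher and 1 lower, 0 cardiomyocyte markers lower and 5 blood cell markers lower. With 1 FPKM in every library 1 other cardiac gene was higher and 0 lower, 0 cardiomyocyte markers, 7 erythroid markers and 4 blood cell markers were lower. With a pseudocount of 0.1 and with quantile normalization, 0 other cardiac genes and 0 cardiomyocyte markers were lower, since TNNI3 lost its call (limma adjusted p = 0.0660 and 0.0564). With protein-coding genes alone 2 endothelial markers were higher.

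The samples share only a replicate number, and with 2 pairs the deviations of same-numbered libraries correlated at 0.383. With the replicate block, 597 genes were higher and 712 lower over all genes. In that paired fit TNNT2 passed (limma adjusted p = 0.0463), so 1 member was higher, as were 3 cardiac transcription factors (among them GATA4, limma adjusted p = 0.0384, and HEY1, 0.0429), 2 endothelial markers and 1 cardiomyocyte marker, while 2 cardiomyocyte markers (with NKX2-5 now called, limma adjusted p = 0.0449) and 1 cytoplasmic or smooth muscle gene were lower.

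With each library left out in turn, 134 to 266 genes were higher and 137 to 309 lower, and 0 to 1 members were higher. The counts ran from 1 to 3 higher and from 0 to 0 lower for other cardiac genes, from 0 to 1 higher and from 1 to 2 lower for cardiac transcription factors, from 0 to 1 lower for skeletal genes, from 1 to 2 higher and from 1 to 3 lower for endothelial markers, and from 0 to 1 higher and from 0 to 0 lower for cardiomyocyte markers. Log2 fold changes that turned sign ran from -0.42 to 0.13 for MYL7, from -0.45 to 0.86 for TNNC1, from -0.025 to 0.27 for MYL6, from -0.40 to 0.33 for MYL6B, from -0.28 to 0.46 for TBX20, from -0.40 to 0.41 for MEF2C, from -0.29 to 0.17 for ACTB and from -0.30 to 0.61 for EGFL7. Median-ratio scaling turned the signs of MYL6B (0.060), ACTB (0.033), ACTG1 (0.039) and KDR (0.032), and quantile normalization those of ACTB (0.010) and ACTG1 (0.024). Where no construction is given the cause was not tested.

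Each member has 1 row, so summing rows of a symbol changed nothing. The values hold no counts, so no count model was run. NPPA, MYH6 and MYH7 lie under the tested range, and with 2 libraries a group the intervals of MYL7, TNNI1 and TNNC1 span changes in both directions.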
